A study of Drosophila melanogaster with 6 samples.

Results

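Cohesin is a ring-shaped protein complex that encircles DNA and holds sister chromatids together from replication until anaphase. Its SMC1 and SMC3 subunits form the arms of the ring, and the kleisin vtd, the fly Rad21, closes it and is the subunit that separase cuts at anaphase. Nipped-B loads the ring, pds5 and dmt act on rings already on chromatin, the acetyltransferase san is needed for cohesion, and wapl opens the ring and releases it. In interphase the same complex holds chromatin loops and takes part in the control of transcription. Transcripts of these genes were followed in Drosophila S2 cells, a cultured embryonic line with hemocyte-like features, after depletion of spotted-dick.

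The members were all probe sets that the Drosophila_2 platform annotation pairs with SMC1, SMC3, vtd, Nipped-B, san, dmt, pds5 or wapl. This gave 7 genes of 11983 with a probe set of their own. Each had 1 of the 18769 fly probe sets on the array, and none was shared with another gene. No probe set was matched to vtd, so the kleisin was not analysed here. Of the 7 probe sets, 6 passed the filter on dim signals and were tested, and the Nipped-B probe set did not pass.

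The series held 6 arrays, 3 from cells given double-stranded RNA (dsRNA) against GFP and 3 from cells given dsRNA against spotted-dick, each harvested after 5 days. S2 cells take up such RNA and degrade the matching mRNA (RNA interference, RNAi), and GFP, a fluorescent protein from a jellyfish that these cells lack, served as the control. Spotted-dick is the gene now named pita, a DNA-binding protein with zinc fingers, and the comparison asks which transcripts change when it is depleted. The labels name no genotype beyond the S2 line, neither an independent spotted-dick dsRNA nor a rescue, so loss of the gene and other effects of that dsRNA cannot be told apart. The labels also do not say whether replicates came from separate cultures, so p-values measure the spread between these samples, which may be technical.

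The trimmed mean signal ran from 125.4 to 189.6 across the arrays, highest in GFP replicate 1, and signals were therefore quantile normalized before testing. The number of arrays limits the precision. Background is the 95th percentile of 100 control probe sets for foreign sequences, a signal of 17.4. Of 11 hemocyte markers 8, srp and Hml among them, lay above background in all 6 arrays. So did 2 of 3 lamellocyte markers (PPO3 and cher), 2 of 3 neuronal markers (elav and brp, but not nSyb) and 1 of 3 germline markers (aub). None of 3 crystal cell, 3 fat body and 1 muscle marker did. For brp this held for the brightest of its 4 probe sets and not for the others. Of 20 tested markers of 6 cell types 3 passed in limma (adjusted p under 0.05), against 2.04% of all 11261 tested probe sets. The hemocyte marker Nplp2 fell by 0.32 on the log2 scale (adjusted p = 1.55e-04). The hemocyte marker Pxn rose from signals of 30.2, 11.5 and 16.8 under GFP RNAi to 73.0, 56.9 and 62.1 (limma adjusted p = 4.14e-04), with 1 of 3 GFP arrays above background. The other Pxn probe set was under 17.4 in all 6 arrays and was not tested. The crystal cell marker PPO1 rose from a mean signal of 4.2 to 32.0 and was not well above background in any GFP array, so no fold change is given. It passed the filter on dim signals only through its spotted-dick arrays, so its call in the test is not taken as support. The target itself fell: pita signals of 335.9, 333.2 and 269.7 under GFP RNAi compared with 25.9, 46.6 and 28.7 under spotted-dick RNAi. On the normalized log2(signal + 16) scale its change was -2.55 ± 0.16 (SE, n = 3 and 3, limma adjusted p = 7.56e-08).

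None of the 6 tested cohesin probe sets passed the test (limma, Benjamini-Hochberg adjusted p under 0.05), against 2.04% of all 11261 tested probe sets. Of the 6, pds5 alone had an unadjusted p under 0.05, against 12.3% of all tested probe sets. Their changes from GFP to spotted-dick RNAi ran from -0.28 for pds5 to 0.12 for SMC1 on the log2 scale, 4 above 0 and 2 below. The median absolute change was 0.11, beside 0.12 over all tested probe sets, and the median signed change was 0.07, beside 0.01. The 95% intervals of all 6 changes lay between 0.681-fold and 1.23-fold on the scale of signal + 16. In bulk cultures a change in the share of cycling cells and a change in RNA per cell cannot be told apart.

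Of the ring subunits, SMC1 (CG6057), the ATPase arm that pairs with SMC3, had deposited signals of 515.4, 438.9 and 318.7 in GFP replicates 1 to 3. In spotted-dick replicates 1 to 3 its signals were 337.2, 381.1 and 414.1. All 3 spotted-dick values lay inside the range of the GFP values. After normalization the SMC1 levels were 8.66, 8.68 and 8.59 under GFP RNAi against 8.66, 8.68 and 8.94 under spotted-dick RNAi, so that spotted-dick replicate 3 alone stood above the GFP range. The log2 change was 0.12 ± 0.09 (SE, n = 3 and 3, limma adjusted p = 0.651), with an interval from -0.07 to 0.30. Without spotted-dick replicate 3 the change was 0.03.

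SMC3 (CG9802), whose ATPase head is acetylated when cohesion is established, gave 305.3, 285.1 and 174.5 in GFP replicates 1 to 3. Under spotted-dick RNAi its signals were 223.6, 226.8 and 187.5. Both the highest and the lowest of the 6 values belonged to GFP arrays. Normalized levels averaged 7.93 ± 0.16 in the GFP and 7.98 ± 0.12 in the spotted-dick arrays (SD, n = 3). The log2 change of 0.05 ± 0.10 (SE, limma adjusted p = 0.898) had an interval from -0.17 to 0.27, and 77.5% of all tested probe sets had a larger absolute change.

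**Figure D1:**
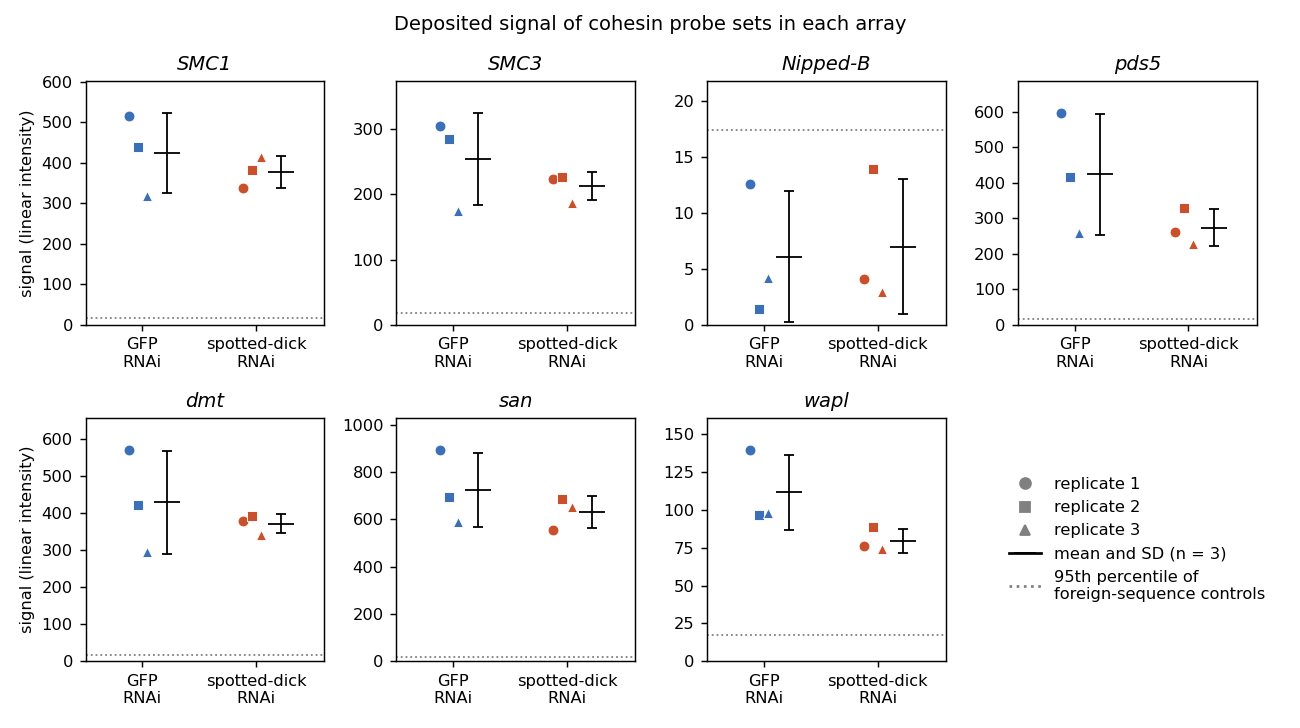
Deposited signal (linear intensity, axes from 0) of the 7 cohesin probe sets in each array, with the mean and SD of each group (n = 3) and the 95th percentile of foreign-sequence controls, 17.4, as a dotted line. GFP replicate 1 is the highest point for all 6 tested genes, and all 6 Nipped-B points lie under the dotted line.

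The loader gene Nipped-B (CG17704), which places cohesin on chromosomes together with Mau2, was not well above background. Its signals were 12.6, 1.4 and 4.2 under GFP RNAi against 4.1, 13.9 and 2.9 under spotted-dick RNAi. All 6 lay under 17.4, and the 2 groups overlapped. Since both groups were below background no fold change is given, and nothing can be said of the Nipped-B transcript from this probe set.

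Among the factors that act on loaded cohesin, pds5 (CG17509), a HEAT-repeat protein that binds the kleisin, had the largest absolute change of the 6. Its signals were 597.7, 416.5 and 257.4 under GFP RNAi against 260.6, 330.1 and 228.4 under spotted-dick RNAi. GFP replicate 3 lay within the range of the spotted-dick arrays, and the other GFP arrays lay above it. After normalization the pds5 levels were 8.87, 8.61 and 8.30 against 8.31, 8.49 and 8.13, so the groups still overlapped. The log2 change was -0.28 ± 0.13 (SE, n = 3 and 3, limma unadjusted p = 0.0408, adjusted p = 0.371), with an interval from -0.56 to -0.01. Of all tested probe sets, 16.3% had a larger absolute change and 11.0% a smaller p.

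The pds5 difference was uneven over the arrays. It was -0.43 within fluidics station 1, which took GFP replicates 1 and 2 and spotted-dick replicate 1. Within station 2, which took the other arrays, it was 0.01. Each of these rests on 1 array of 1 group. Leaving out GFP replicate 1, the array with the highest pds5 level, gave a change of -0.15, and leaving out GFP replicate 3 gave -0.43. The part of the station in this difference was not tested beyond these values and a fit with the station as a block, in which the change was -0.21.

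dmt (CG8374), known as Dalmatian, protects cohesin in flies and is counted as the fly counterpart of vertebrate sororin. Its signals were 570.6, 421.8 and 294.0 under GFP RNAi against 377.9, 391.1 and 341.6 under spotted-dick RNAi. The spotted-dick values lay close together inside the GFP range. Normalized levels averaged 8.63 ± 0.17 and 8.74 ± 0.08 (SD, n = 3). The resulting difference was 0.10 ± 0.09 on the log2 scale (SE, limma adjusted p = 0.716) with an interval from -0.09 to 0.30. It was 0.19 without GFP replicate 1 and 0.02 without GFP replicate 3.

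san (CG12352), or separation anxiety, encodes the N-terminal acetyltransferase Naa50. Signals of san were 895.2, 693.8 and 587.5 under GFP RNAi against 555.1, 688.0 and 652.7 under spotted-dick RNAi, and the groups overlapped. Its normalized levels varied least, spanning 0.24 log2 units over the 6 arrays, against 0.74 for pds5 and 0.33 to 0.37 for the other 4 tested genes. The log2 change of san was 0.08 ± 0.07 (SE, limma adjusted p = 0.711), with an interval from -0.07 to 0.24, and it ran from 0.04 to 0.14 with 1 array left out.

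Signals of the release factor gene wapl (CG3707) were 139.7, 96.5 and 98.1 under GFP RNAi against 75.8, 88.3 and 74.0 under spotted-dick RNAi. As deposited, all 3 spotted-dick values lay below all 3 GFP values, as they did for 12.6% of tested probe sets. That separation did not hold after normalization, where GFP replicate 2 at 6.66 lay level with spotted-dick replicates 1 and 3 at 6.68 and 6.66. Its log2 change was -0.16 ± 0.13 (SE, n = 3 and 3, limma adjusted p = 0.671), with an interval from -0.43 to 0.11. The differences within stations 1 and 2 were -0.11 and -0.30, and the change ran from -0.26 to -0.08 with 1 array left out.

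**Figure D2:**
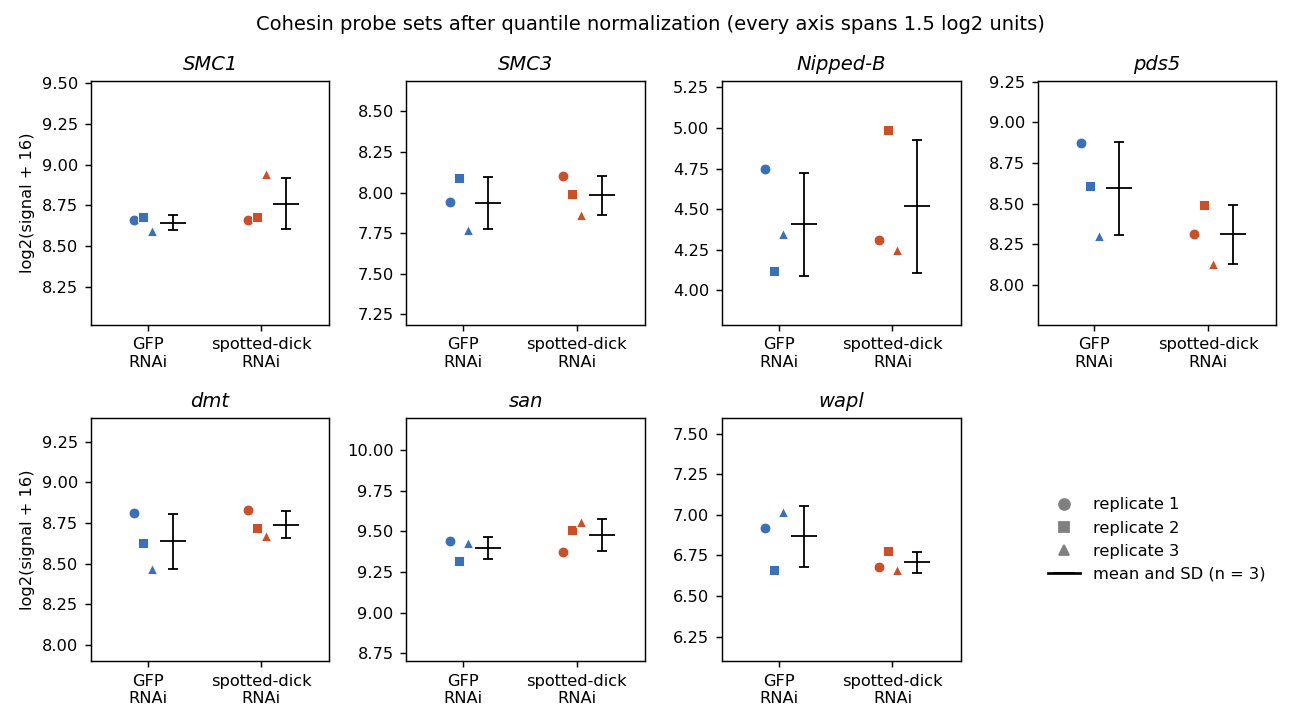
Quantile-normalized log2(signal + 16) of the 7 probe sets in each array, with the mean and SD of each group (n = 3); every vertical axis spans the same distance, placed at each gene's own level. The groups overlap in all 7 panels, with the widest spread among tested genes for pds5 (0.74) and the narrowest for san (0.24).

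After normalization the groups overlapped for all 6 tested members, while they did not overlap for 17.8% of all tested probe sets. Within station 1 and station 2 the differences were -0.01 and 0.22 for SMC1 and 0.09 and 0.16 for SMC3. They were 0.11 and 0.22 for dmt and -0.01 and 0.10 for san. As deposited, by contrast, the mean signal of all 6 was lower in the spotted-dick arrays, from 0.64 times the GFP mean for pds5 to 0.89 times for SMC1. That direction was shared by 83.2% of all tested probe sets. In each of the 6 the highest deposited signal was in GFP replicate 1, the brightest array, as it was for 66.3% of all tested probe sets.

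As deposited, where the arrays differed in brightness, the members varied together from array to array. Across the 6 arrays, Pearson's r between the log2(signal + 16) values of 2 members ran from 0.62 to 0.93 over 15 pairs as deposited. After quantile normalization it ran from -0.67, for SMC3 and wapl, to 0.64, for SMC3 and dmt, with a median of -0.03 and 7 of 15 pairs above 0. SMC1 and SMC3, which form 1 heterodimer, had an r of 0.78 as deposited and -0.13 after normalization. These values describe 6 arrays that share 1 cell line and differ in brightness. No r as deposited is given for pairs of other probe sets, so the high values are not taken as particular to the members.

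**Figure D3:**
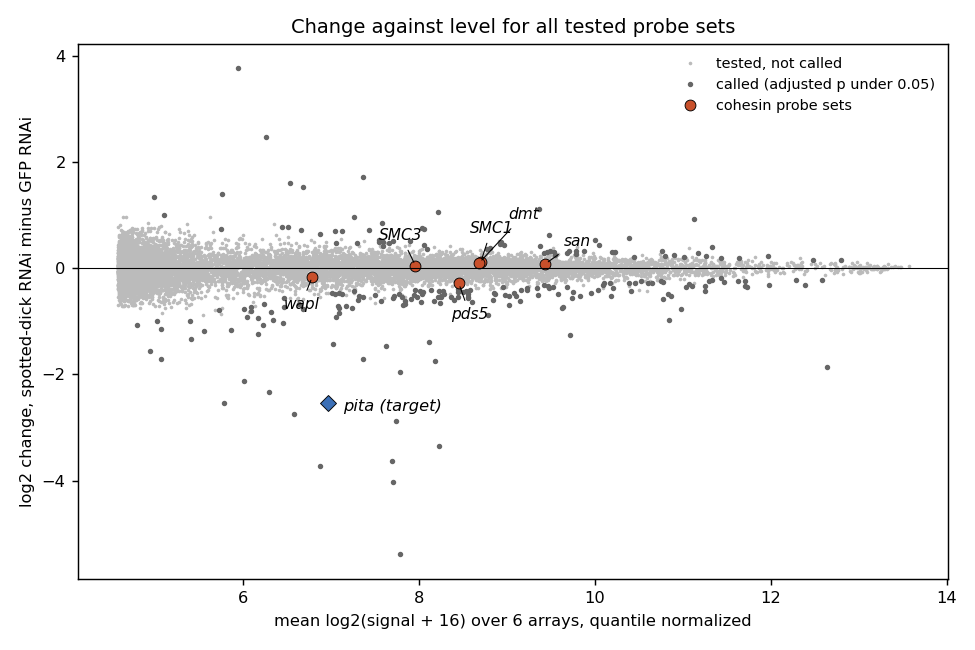
Log2 change from GFP to spotted-dick RNAi (vertical) against mean normalized level (horizontal) for all 11261 tested probe sets, those with an adjusted p under 0.05 in dark grey. The 6 cohesin probe sets lie between -0.28 and 0.12, within the band of uncalled probe sets, and the target pita lies at -2.55.

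The genes whose normalized pattern over the 6 arrays was most like each member were ldbr for SMC1 (Pearson's r = 0.979), Remo for SMC3 (0.969), CG34353 for pds5 (0.993), mRpL10 for dmt (0.988), 128up for san (0.994) and Jon66Ci for wapl (0.990). These were the highest of 8975 candidate probe sets in each case, and between 7 and 23 candidates had an r above 0.95. None of these 6 genes passed the test between the groups in limma (lowest adjusted p = 0.675). Each was picked for a pattern like that of a member that had not passed, so this adds no separate result. Each r was also selected as the highest of 8975 over 6 arrays, so no link between the genes is drawn from it.

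Genes that work with cohesin were taken from a list of 35, of which 28 had a probe set of their own and 27 were tested. None passed in either direction, against 2.04% of all tested probe sets, and 2 had an unadjusted p under 0.05, against 12.3%. Their median change was 0.05, beside 0.01 over all tested probe sets, and changes ran from -0.21 to 0.29. The lowest change belonged to SA2, which lay above background in 3 of 6 arrays. The meiotic cohesion gene sunn, with group mean signals of 10.7 and 12.4, both under 17.4, also enters these values. The smallest p belonged to aurB, the kinase of the chromosomal passenger complex, with a change of 0.24 ± 0.09 (SE, limma adjusted p = 0.282). It was followed by CG11403, the fly counterpart of the Chl1 helicase that assists cohesion at the replication fork (0.29 ± 0.13, SE, limma adjusted p = 0.364).

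Among the other genes that couple cohesion to replication, elg1, part of a clamp-unloading complex, did not pass (0.20 ± 0.10, SE, limma adjusted p = 0.429), nor did timeout, a fork protection gene (0.24 ± 0.12, adjusted p = 0.474). For CG11403 and timeout all 3 spotted-dick levels lay above all 3 GFP levels, as they did for 9.51% of tested probe sets. The same held for Sse of the separase module and for mei-S332, a centromere protection gene. In all, the groups did not overlap for 4 of the 27 tested genes that work with cohesin, against 17.8% of all tested probe sets. Of the 6 tested genes that couple cohesion to replication 4 lay above 0 and 2 below, with a median of 0.15. The 3 genes of the separase module lay between 0.06 and 0.15. Haspin, a histone kinase of mitotic chromosomes, had a change of 0.17 ± 0.12 (SE, limma adjusted p = 0.624).

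Mau2, the partner of Nipped-B, had a change of -0.20 ± 0.13 after normalization (SE, limma adjusted p = 0.584). Its mean signals as deposited, which carry the differences in array brightness, were 139.9 in the GFP and 97.5 in the spotted-dick arrays. SA1, the Stromalin subunit that binds the kleisin, had a change of -0.07 ± 0.12 (adjusted p = 0.878), and eco, which acetylates SMC3, of -0.04 ± 0.09 (adjusted p = 0.902); both were singled out after their values were seen. The 4 other SMC genes on the list, of condensin and of the SMC5/6 complex, ran from -0.05 to 0.11.

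**Figure D4:**
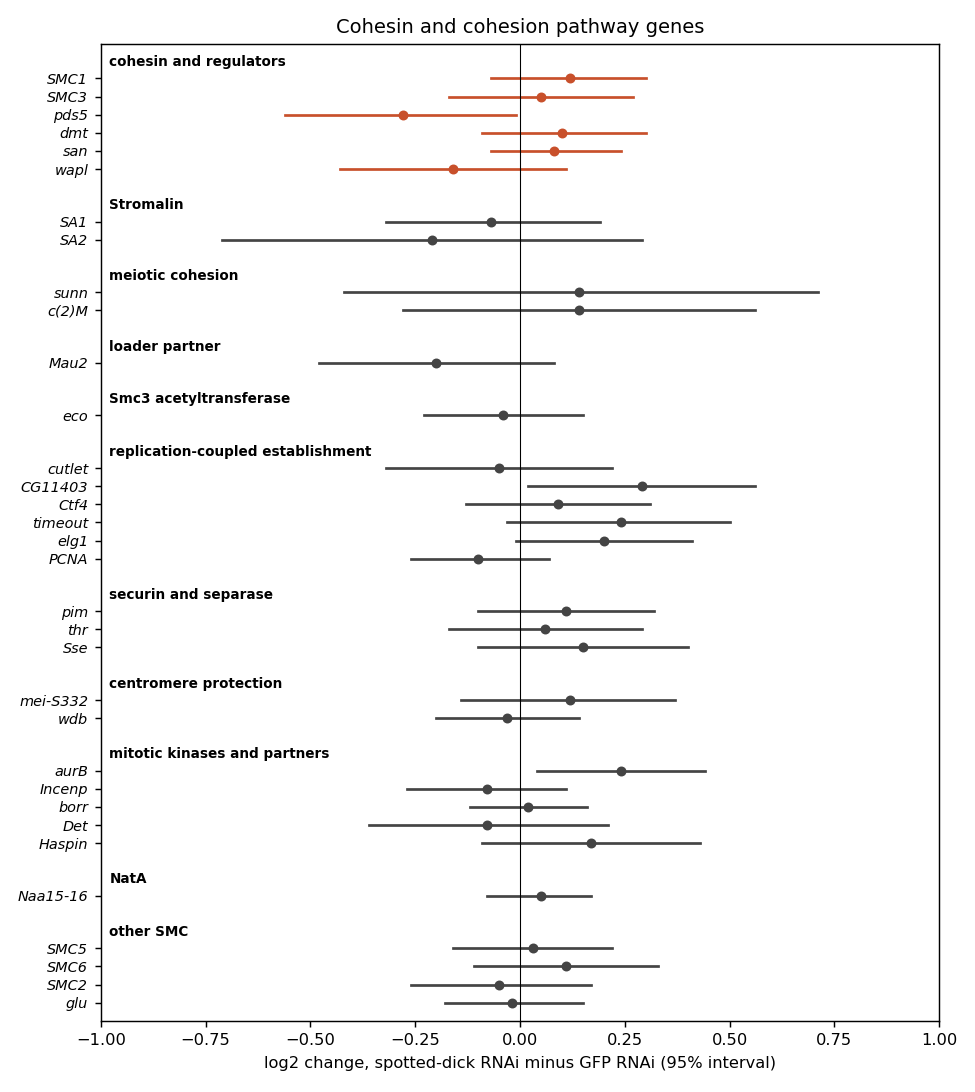
Log2 change from GFP to spotted-dick RNAi with its 95% interval (limma) for the 6 tested cohesin genes and, by role, the 27 tested genes that work with them. Intervals that exclude 0 belong to pds5, CG11403 and aurB, none of which passed after adjustment over all tested probe sets.

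Cohesin and Nipped-B are known in flies to bear on the transcription of certain developmental genes, and 8 of 11 such genes had a probe set, of which 5 were tested. None of the 5 passed, against 2.04% of all tested probe sets, and 1 had an unadjusted p under 0.05, against 12.3%. Their changes ran from -0.30 to 0.04 with a median of -0.22, beside 0.01 over all tested probe sets. The homeobox gene ct, a classical Nipped-B target, had mean signals as deposited of 370.2 and 241.6 in the GFP and spotted-dick arrays. Its change after normalization was -0.30 ± 0.12 (SE, n = 3 and 3, limma adjusted p = 0.277). Another tested ct probe set had a change of -0.28 ± 0.12 (SE, limma adjusted p = 0.351). For both ct probe sets the groups overlapped after normalization. Within stations 1 and 2 the differences were -0.01 and -0.43 for the brighter ct probe set and 0.04 and -0.52 for the other. The part of the station in these differences was not tested. The brightest of 5 tested probe sets of the ecdysone-response gene br had a change of -0.23 ± 0.14 (SE, limma adjusted p = 0.546). Among the other 4, changes were -0.09 and 0.31 where the mean signals of both groups lay above 17.4. The rest of these br probe sets had mean signals under 17.4 in both groups, so their changes are not given. The ecdysone receptor gene EcR had a change of 0.04 ± 0.20 (SE, limma adjusted p = 0.955). The Notch-response gene E(spl)mbeta-HLH had a change of -0.22 ± 0.18 (SE, limma adjusted p = 0.687). Signals of E(spl)m3-HLH and of the untested inv, en and E(spl)m7-HLH were under 17.4 in all 6 arrays. E(spl)m3-HLH was still among the 5 tested genes and enters their range and median. Since both groups were below background its change is not given.

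Leaving the arrays unscaled reversed the direction of SMC1, SMC3, dmt and san, but not that of pds5 and wapl. The standing of the members in the test did not change. In 18 refits with other settings none of the 6 passed. pds5 stayed below 0 in all 18, from -0.54 to -0.15, with adjusted p from 0.136 to 0.834, and wapl also stayed below 0, from -0.40 to -0.08. SMC1, dmt and san lay above 0 in 16 of 18 and SMC3 in 14. On values as deposited, where the median of all tested probe sets was itself -0.20 and 1.23% were called, all 6 members lay below 0. Relative to that median the changes were 0.06 for SMC1, -0.01 for SMC3, 0.04 for dmt and 0.02 for san, beside -0.34 for pds5 and -0.20 for wapl.

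**Figure D5:**
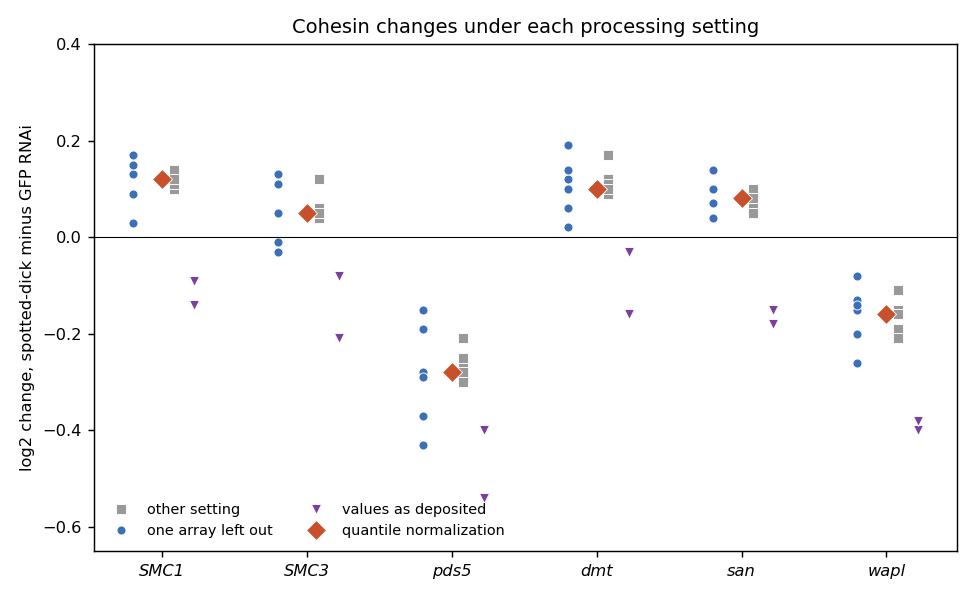
Log2 change of the 6 tested cohesin genes (vertical) under quantile normalization of all 6 arrays (diamonds), with 1 array left out (circles), on values as deposited with and without the station block (triangles) and in the other settings (squares). Only the values as deposited put SMC1, dmt and san below 0, while pds5 and wapl lie below 0 in all settings drawn.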

How the data were processed

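The authors deposited a linear intensity for each probe set of each Affymetrix Drosophila_2 array (chip type per the file headers). Their method for combining probes, correcting background or scaling arrays, and the genome build, were not given in the sources used here. The file headers also gave the fluidics station of each array. Of 18894 probe sets 125 were controls and 18769 measured fly transcripts. The platform annotation paired 13647 of these with 1 gene, 402 with several and left 4720 unnamed here, and 13544 probe sets had a gene ID found in the RefSeq table of Release 6.

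Trimmed means (2% from each end) differed 1.51 times between arrays, so signals were quantile normalized and log2(signal + 16) was fitted with limma 3.58.1 in R 4.3.3 (lmFit, eBayes with an intensity trend). Probe sets under the 40th percentile of mean level were left out, and p-values were Benjamini-Hochberg adjusted over the remaining 11261. A fold change on this scale understates the change of dim probe sets. Where a gene had several probe sets, the brightest stood for it. GFP arrays were scanned before spotted-dick arrays, per the file headers, so group and order of scanning are confounded. The fit was tested on simulated data. Same-numbered arrays did not deviate together (r of -0.06, -0.03 and 0.05). Members and lists were chosen with earlier results of these data known. Named genes were all members, pita, the 6 pathway genes with the smallest p, all tested genes of the developmental list, and the closest match to each member. SA1, SA2, eco, sunn, Sse, mei-S332, the cell type markers and the untested developmental genes are named outside this rule, after their values were seen. Alternatives were other scalings, pseudocounts, filters, limma options, blocks and leaving out each array. Figures were drawn with matplotlib 3.10.9.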

Additional observations from a re-analysis of the deposited data

How the results depend on the processing

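No cohesin probe set and no cohesion pathway gene passed in any of the 18 refits, and pita passed in all 18 (change from -2.98 to -1.81). The number of all tested probe sets called, 230, was 139 on values as deposited, 92 on values as deposited with the station block, 126 without the filter on dim probe sets, 53 without the intensity trend, and from 116 to 247 with 1 array left out (116 without GFP replicate 2, 144 without GFP replicate 3 and 140 without spotted-dick replicate 3). Calls that rose made up 30.0% as normalized and 7.91% as deposited. The median change of the 6 tested members, 0.07, was -0.20 as deposited and -0.12 as deposited with the station block, and ran from -0.01 to 0.08 with 1 array left out. As deposited the changes were -0.14 for SMC1, -0.21 for SMC3, -0.16 for dmt and -0.18 for san, and with the station block added they were -0.09, -0.08, -0.03 and -0.15. SMC3 was also below 0 without GFP replicate 3 (-0.03) and without spotted-dick replicate 1 (-0.01), and with 1 array left out it ran from -0.03 to 0.13. In the values as deposited the arrays differed in brightness; the cause of the other changes was not tested. With the replicate number as a block 198 probe sets were called, none of them a member, and not every array correlated best with its own number. Each member had 1 probe set, so averaging probe sets was not run. The dim Nipped-B probe set and the missing match for vtd limit what can be said of loading and of the kleisin.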
